A study of Saccharomyces cerevisiae with 2 samples.

Results

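The genes described here are the 53 yeast ORFs whose standard name is UTP, NOP or RRP followed by a number. They were taken by name alone from the deposited feature tables, and they make up 0.914% of the 5798 ORFs listed there. The set holds 18 UTP genes, 17 NOP genes and 18 RRP genes, and each name was present in the table of both replicates. The samples were 2 biological replicates of the Saccharomyces cerevisiae strain JZY65, which lacks the RPB4 coding sequence (Δrpb4), grown to log phase in YPD medium at 30 °C. Rpb4 is a subunit of the stalk of RNA polymerase II. Total RNA was profiled by 3' READS, a method that sequences the 3' ends of polyadenylated RNA and so maps the position at which each poly(A) tail was added. Both replicates formed 1 group and no parental strain is analysed here, and none of the values can be read as a result of deleting RPB4. All values come from bulk cultures, where a low level in every cell and a higher level in fewer cells cannot be told apart.

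Ribosome biogenesis starts in the nucleolus, where RNA polymerase I makes a long precursor rRNA that is folded, modified and cut while ribosomal proteins bind it. The UTP proteins, named after the U3 RNA, build with the U3 small nucleolar RNP (snoRNP) the small-subunit (SSU) processome on the 5' part of the precursor. Many assemble first as the subcomplexes UTP-A, UTP-B and UTP-C. The NOP ("nucleolar protein") names cover snoRNP core proteins, which modify the rRNA, and factors of the small and of the large ribosomal subunit (LSU). The RRP ("rRNA processing") names cover factors of both subunits and 7 proteins of the RNA exosome, the complex that trims and degrades RNA from its 3' end. The name families therefore cut across the complexes, and results are given by family and by the role of the protein.

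Reads were counted in the window from 1 to 400 nt after each stop codon. Over all ORFs these windows contained 27374983 reads (replicate 1) and 24905286 reads (replicate 2). All 53 genes had at least 100 window reads in each replicate, as had 4939 ORFs in all, and the other 4886 of those ORFs serve as the background below. Window reads per gene spanned 211 to 36085 in replicate 1 and 245 to 36933 in replicate 2. No read lay inside the RPB4 ORF in either replicate. This alone cannot show the deletion, since the ORF of NOP10 also held no read. Given 4486 and 4066 reads in the window after the RPB4 stop codon, 3 counts would have been 0.0669% and 0.0738% of these. What stands in place of the deleted sequence is not stated in the labels.

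Levels are given as RPM, a gene's window reads per 1000000 reads of all ORF windows. The method counts each transcript once, at its 3' end, so gene length does not enter and genes can be compared. The 53 genes together held 0.914% of the ORF window reads in replicate 1 and 1.01% in replicate 2. Median levels were 73.7 and 87.9 RPM for the UTP genes, 117 and 161 RPM for the NOP genes, and 70.6 and 75.1 RPM for the RRP genes in replicates 1 and 2. The other ORFs had medians of 51.0 and 54.4 RPM. All 3 families thus had medians above that of the other ORFs in both replicates, and single genes of each family also lay below it.

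Subunits of 1 complex had very unequal levels. UTP6, a subunit of UTP-B, had the highest level of the 53 genes, with 1318 and 1483 RPM (1401 ± 117, SD, n = 2), more than 97.4% of the ORFs used. UTP18, a WD-repeat subunit of the same complex, had 46.2 and 33.9 RPM. The ratio of the most to the least read gene was thus 35.0 among the 4 UTP-B genes of the set, which include UTP13 at 118 RPM and UTP21 at 103 RPM. Subunits outside the name rule do not enter these ratios. Among the 6 UTP-A genes of the set, UTP8 had 707 and 641 RPM and UTP5 had 7.71 and 9.84 RPM, a ratio of 76.8. UTP5 had the fewest window reads of all 53 genes, 211 and 245, but most of its reads lay inside its ORF (1185 and 912). With the reads inside the ORF added, UTP5 had 51.0 and 46.5 RPM, and UTP15 was the lowest of these UTP-A genes at 29.4 RPM. The ratio among them was then 23.0, and that among the UTP-B genes of the set was 32.8. RRP36 was then the lowest of the 53 genes, at 12.7 and 14.1 RPM. By either count these gaps are far larger than the differences between replicates.

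Among the snoRNP proteins, the methyltransferase fibrillarin, encoded by NOP1, had 499 and 625 RPM. NOP10, a box H/ACA core protein, had 514 and 545 RPM. Other box C/D core proteins than NOP1 followed, with means of 201 RPM for NOP56 and 164 RPM for NOP58. RRP9, the U3-specific protein, was the lowest of these 5 genes at 16.8 and 20.5 RPM. Of the large-subunit factors, RRP1 led with 893 and 1020 RPM, followed by NOP15, an RNA-binding protein, at a mean of 550 RPM. NOP7, whose protein binds Erb1 and Ytm1, had a mean of 516 RPM, and RRP8, a 25S rRNA methyltransferase, was lowest at 24.97 RPM. The exosome genes ran from RRP43, a ring subunit, at 31.6 and 31.4 RPM to RRP40, a cap subunit, at 367 and 315 RPM. The plot of reads by complex shows that every role with 3 or more genes spans at least a 9.57-fold range of mean levels.

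**Figure D1:**
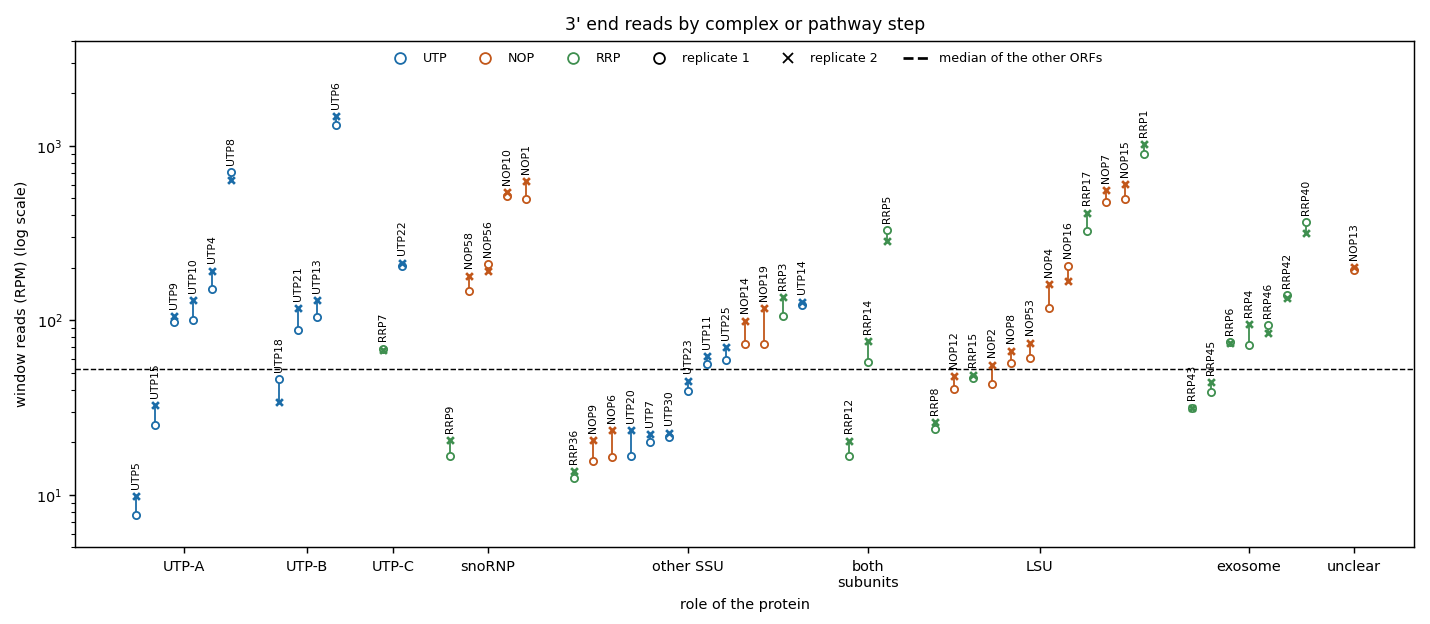
Window reads per 1000000 ORF window reads (RPM, log axis) of each of the 53 genes, grouped by the role of the protein, with circles for replicate 1, crosses for replicate 2 and colours for the name families; the dashed line is the median of the other ORFs. By window reads UTP6 is highest and UTP5 lowest, and levels within a complex differ far more than the replicates do.

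The mean endpoint is the average position of a gene's window reads, in nt after the stop codon. Its median was 92.8 nt for the UTP genes (93.1 and 92.1 nt in the replicates), 112.6 nt for the RRP genes (112.4 and 112.8 nt) and 125.4 nt for the NOP genes (123.8 and 130.4 nt). It was 122.9 nt for the other ORFs, with 122.4 and 123.7 nt in the replicates. The SD of the replicate medians was 0.695 nt for UTP, 0.253 nt for RRP, 4.66 nt for NOP and 0.945 nt for the other ORFs (n = 2 each). The gap between the UTP median and that of the other ORFs was thus larger than the spread between replicates, and that of the NOP genes was not. This spread comes from measuring the same genes again and does not cover the variation among genes. The quartiles were 72.3 and 138.4 nt for UTP, 94.0 and 156.8 nt for NOP, and 91.5 and 169.7 nt for the other ORFs. The genes of every family were spread widely around their median, and the families overlapped.

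A mean endpoint beyond the median of the other ORFs was found for 6 of 18 UTP genes, 10 of 17 NOP genes and 6 of 18 RRP genes, which is 22 of 53 or 41.5%, against 49.9% of all ORFs used. An endpoint under 100 nt was found for 11 UTP, 5 NOP and 7 RRP genes, 43.4% of the set, against 32.2% of all ORFs used. An endpoint over 150 nt was found for 4 UTP, 7 NOP and 2 RRP genes, 24.5%, against 33.4%. No test was made of these shares, because the names were chosen with results of these data known. The plot of cumulative endpoints shows the UTP curve rising first and the NOP curve lying near that of the other ORFs.

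**Figure D2:**
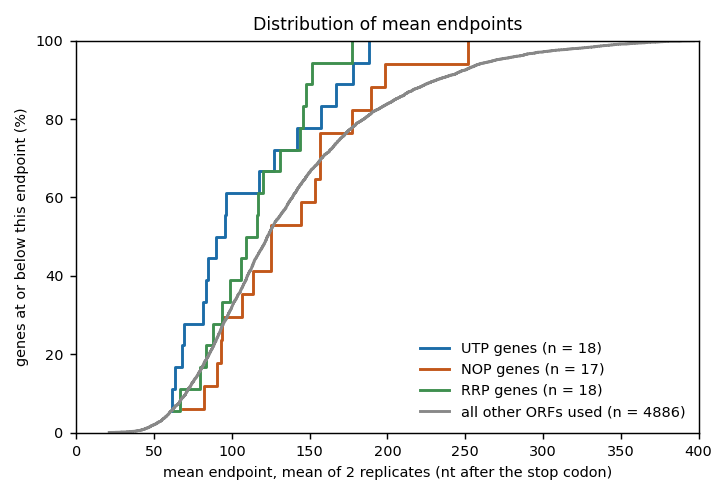
Cumulative share of genes (%) by mean endpoint (nt after the stop codon, mean of 2 replicates) for the UTP, NOP and RRP genes and for the other ORFs used. The medians are 92.8, 125.4 and 112.6 nt for UTP, NOP and RRP and 122.9 nt for the other ORFs.

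Within UTP-A, which binds the start of the precursor, endpoints spanned 61.6 to 188.5 nt. UTP10, a HEAT-repeat subunit, had 61.6 and 61.7 nt, the shortest of the complex. UTP9 followed with 67.3 and 69.2 nt, UTP8 with 84.3 and 85.3 nt and UTP15 with 96.3 and 95.2 nt. UTP5 had 157.9 and 175.8 nt, and the WD-repeat subunit UTP4 had 187.9 and 189.1 nt, the longest of the UTP genes. UTP4 (chromosome IV, 1114433 to 1116763, minus strand) put 65.7% and 62.1% of its window reads at position 180. Thus 4 of these 6 genes ended before the median of the other ORFs, and UTP5 and UTP4 well beyond it. NAN1, a UTP-A gene outside the name rule, is given below.

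The UTP-B subunits were as spread. UTP21 had 65.0 and 73.4 nt, UTP18 had 82.0 and 85.1 nt, UTP13 had 125.8 and 129.0 nt and UTP6 had 178.3 and 177.7 nt. UTP6 (chromosome IV, 1357580 to 1358902, minus strand) had a group of reads centred at position 190 with 65.2% and 63.7% of its reads and another at position 156 with 29.1% and 30.8%. In UTP-C, a complex shared with casein kinase 2, UTP22 had 89.9 and 89.7 nt and RRP7 had 108.4 and 109.5 nt. The longest and shortest UTP-B genes were therefore farther apart than the medians of any of the name families.

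The other 13 small-subunit factors had a median of 96.2 nt and held both the shortest and the longest endpoint of the set. UTP25, an SSU processome protein, had 59.8 and 60.6 nt, and the HEAT-repeat protein gene UTP20 had 64.2 and 62.2 nt. NOP14 (chromosome IV, 188154 to 190586, minus strand) had 247.0 and 256.2 nt, farther than 92.9% of the ORFs used. Between them lay, for example, UTP14, whose protein activates the helicase Dhr1, at 119.4 and 116.0 nt, and the DEAD-box protein gene RRP3 at 116.6 and 117.5 nt. Of these 13 genes, 4 had an endpoint beyond the median of the other ORFs: NOP14, UTP23 (157.3 nt), NOP19 (153.3 nt) and UTP30 (142.1 nt).

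The snoRNP genes had the highest median endpoint of any role, 177.3 nt. All 5 lay beyond the median of the other ORFs, at 143.7 nt for RRP9, 156.8 nt for NOP10, 177.3 nt for NOP56, 189.6 nt for NOP1 and 198.2 nt for NOP58. NOP1 had 189.6 and 189.5 nt in the replicates, and NOP58 had 198.5 and 197.9 nt. The replicates of each of the 5 genes differed by at most 2.57 nt. The snoRNP proteins outside the name rule lay elsewhere in part: SNU13, which binds U3 and other box C/D RNAs, had 72.6 nt, the pseudouridine synthase gene CBF5 had 125.9 nt, NHP2 had 136.1 nt and GAR1 had 154.2 nt. SNU13 thus ended before the median of the other ORFs.

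The 12 large-subunit factors ran from NOP8 (66.8 and 70.3 nt) and the RNA-binding protein gene NOP4 (81.4 and 83.3 nt) to RRP15 (150.8 and 151.7 nt) and NOP7 (157.2 and 156.0 nt). Of these, 6 lay beyond the median of the other ORFs and 6 before it. The methyltransferase genes RRP8 and NOP2 had means of 98.8 and 125.4 nt. The genes of factors used for both subunits lay closer together, with 105.8 nt for RRP5, 119.8 nt for RRP14 and 131.2 nt for RRP12. NOP13, a nucleolar RNA-binding protein that was given no role here, had 106.2 nt.

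The exosome is a ring of subunits under a cap, and its 7 genes with RRP names had a median endpoint of 83.4 nt. The cap subunit gene RRP40 had 62.7 and 63.0 nt, and its partner in the cap, RRP4, had 145.4 and 146.3 nt. The ring genes were at 66.6 nt for RRP42, 79.3 nt for RRP46, 116.3 nt for RRP45 and 177.2 nt for RRP43. RRP6, the nuclear exonuclease, had 83.1 and 83.7 nt. Exosome genes outside the name rule spanned a similar range, from SKI6 (78.7 nt) and CSL4 (80.7 nt) through DIS3 (107.2 nt) to MTR3 (212.5 nt, on 169 and 128 reads). Subunits of this 1 complex therefore had both some of the shortest and some of the longest endpoints.

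**Figure D3:**
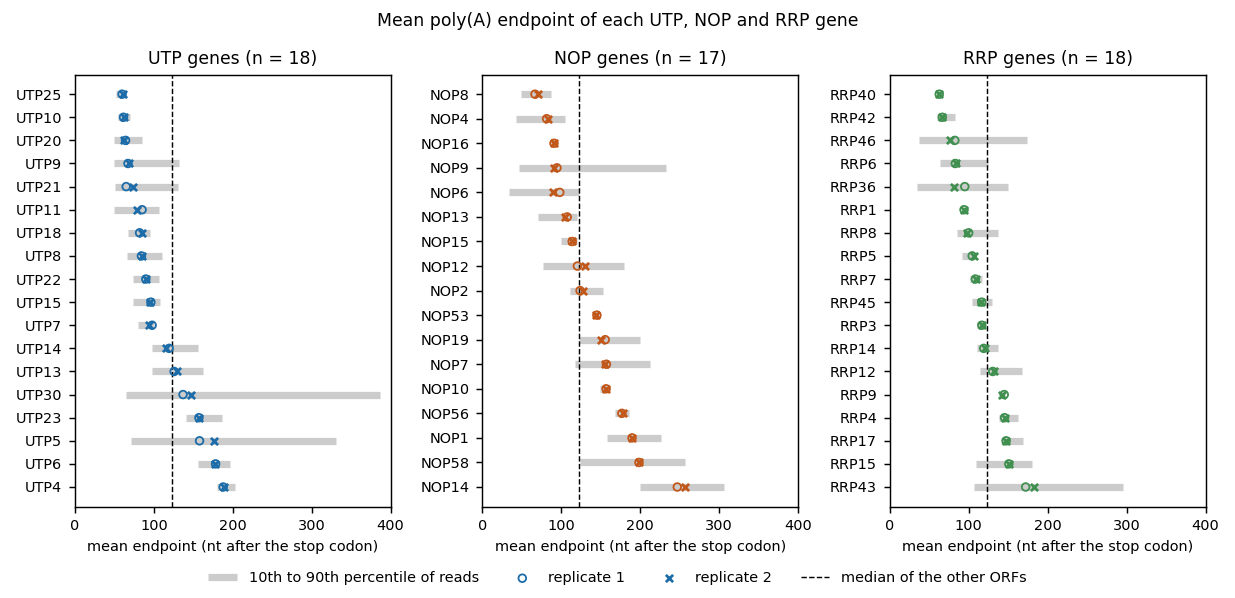
Mean endpoint (nt after the stop codon) of each gene in replicate 1 (circle) and replicate 2 (cross), by name family and in order of the mean; grey bars join the 10th and 90th percentiles of the window reads (means of 2 replicates), and the dashed line is the median of the other ORFs at 122.9 nt. Circles and crosses mostly coincide, while UTP30, UTP5 and RRP43 have the widest bars.

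Genes also differed in how far their reads were gathered at 1 position. The leading position, the most used one, held a median of 39.9% of window reads for UTP, 36.1% for NOP and 39.1% for RRP genes, against 33.6% for the other ORFs. The spread over positions was also given as an effective number, the count of equally used positions that would have the same Shannon entropy. It had medians of 7.47 for UTP, 9.09 for NOP and 6.93 for RRP genes, against 8.46 for the other ORFs. A leading share over 50% was found for 2 UTP, 2 NOP and 6 RRP genes, which is 10 of 53 or 18.9%, against 19.2% of all ORFs used. The share of the set was near that of all ORFs, but the families differed. It was 33.3% for RRP genes, 11.1% for UTP and 11.8% for NOP genes.

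RRP1 (chromosome IV, 617470 to 618306, minus strand) was the most gathered, with 20452 of 24443 and 21306 of 25399 window reads at position 93, or 83.7% and 83.9%. RRP40 (chromosome XV, 55558 to 56280, plus strand) had 81.8% and 83.2% of its reads at position 63. NOP10 had 71.8% and 69.3% at position 158. Most reads of these genes thus lay at 1 position, with effective numbers of 2.14 for RRP1, 2.41 for RRP40 and 3.59 for NOP10. Their profiles correlated between replicates with r between 0.9995 and 0.9998 over the 400 positions, which are not independent.

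At the other end, RRP43 (chromosome III, 191834 to 193018, minus strand) had no position above 11.7% of its reads. When reads within 10 nt of a peak were joined into site groups of at least 10% of reads, RRP43 had 5 groups, centred at 104, 127, 142, 168 and 194 nt. Their mean shares were 10.7%, 13.9%, 20.2%, 13.9% and 26.8%. Outside these groups, RRP43 also had 45 and 34 reads at position 386, near the end of the window. NOP7 had 4 groups, of which that at position 160 held 37.3% and 34.3% and that at position 117 held 26.0% and 28.2%. NOP12, an RNA-binding protein of 25S rRNA maturation, had a leading share of only 13.4% and 19.1% and an effective number of 19.4. These genes used many positions in both replicates.

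More than 1 site group was found for 14 UTP, 14 NOP and 12 RRP genes, 40 of 53 or 75.5%, which equals the 75.5% of all ORFs used. With groups of at least 20% of reads the count was 24 genes, against 45.6% of all ORFs used. Joining reads within 5 nt gave 45 genes, against 85.5% of all ORFs used, and joining them within 20 nt gave 29, against 60.7%. The leading position was the same in both replicates for 46 genes (86.8%), against 83.8% of all ORFs used. For RRP46, RRP4, UTP11 and NOP8 the change was a shift of 5 to 8 nt. In UTP13 and NOP14 it was a change in the balance of well separated sites. UTP13 (chromosome XII, 579318 to 581771, minus strand) had 35.9% and 28.8% of reads at position 98 and 27.3% and 34.2% at position 162. NOP14 had 24.9% and 18.5% at position 204 and 13.8% and 18.8% at position 281. RRP43 had 11.2% and 7.04% of reads at position 142 and 10.6% and 11.7% at position 194. These sites were thus present in both replicates, with shares that differed between them.

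**Figure D4:**
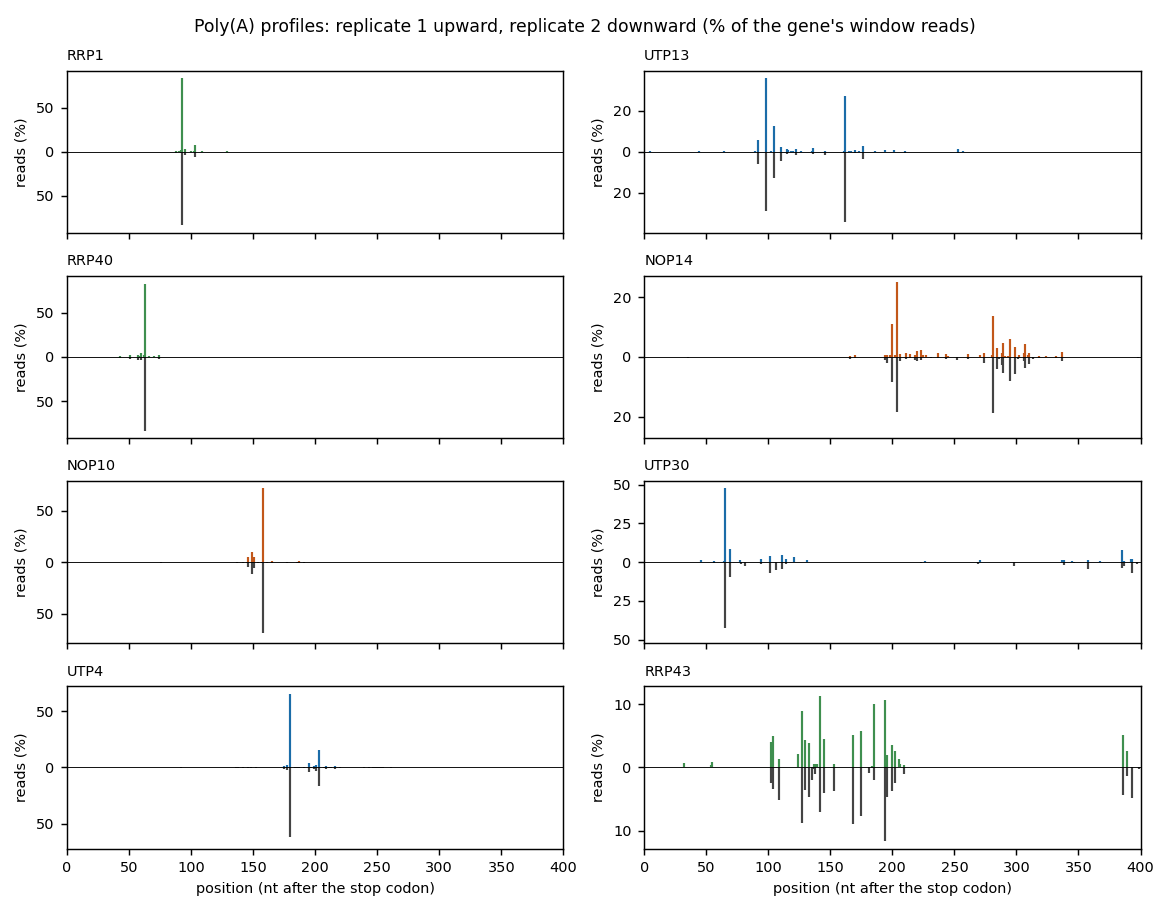
Share of a gene's window reads (%) at each position from 1 to 400 nt after the stop codon, replicate 1 upward in colour and replicate 2 downward in dark grey, for 4 genes with a high leading share (left) and 4 with several sites (right); the vertical axes differ between panels. RRP1, RRP40, NOP10 and UTP4 have 1 dominant position, while UTP13, NOP14, UTP30 and RRP43 have reads at separated sites in both replicates.

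The yeast genome is compact, and 39 of the 53 windows reached the next listed feature, against 3458 of all 4939 ORFs used. For 27 of the 53 genes that neighbour lay on the opposite strand, so that the pair converges, against 2292 of the 4939 ORFs used. More than 5% of window reads lay at or beyond the first base of the neighbour in both replicates for 3 UTP, 3 NOP and 3 RRP genes. That is 9 of 53 or 17.0%, against 23.0% of all ORFs used. The counts on opposite strands were not copies of each other. This was checked in replicate 1 at positions shared by the windows of convergent ORFs. Of 33659 such positions with at least 20 reads on either strand, only 6 had equal reads on both strands. A position could enter once from each gene of a pair. Whether a part of the reads was placed on the wrong strand was not tested.

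NOP8 (chromosome XV, 53098 to 54552, plus strand) had the largest such share. Its stop codon lies 43 nt before the end of RIB4 on the opposite strand, and 87.4% and 95.6% of its window reads ended at or beyond that point. NOP14 ended within or beyond ATG9, 236 nt away on the opposite strand, with 50.4% and 62.0% of reads. UTP23 followed, with 43.2% and 40.7% at or beyond DNL4, 153 nt away, and UTP25, with 25.2% and 21.01% at or beyond YIL092W, 63 nt away. Shares for RRP43, NOP7, RRP46 and RRP42, all facing convergent neighbours, were between 8.20% and 18.1%. The most common 3' ends of NOP8 thus lie antisense to its neighbour's coding sequence.

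Windows that overlap a feature on the same strand can also hold reads of that feature. This applied to 8 UTP genes (44.4% of the family), no NOP gene and 4 RRP genes (22.2%). The share was 22.6% for the set, against 23.8% of all ORFs used, so the families differed. In 9 of these 12 genes under 1% of window reads lay in or past the neighbour, at most 0.111%. The exceptions were UTP30, UTP21 and UTP11. UTP30 (chromosome XI, 556518 to 557342, plus strand), a nonessential SSU processome gene, had 19.3% and 21.02% of its reads at or beyond the start of KTR2, 335 nt away. These reads set its endpoint, which was 142.1 nt over the whole window and 82.7 nt over positions 1 to 300. Whether they are 3' ends of UTP30 or of RNA that starts in KTR2 was not tested. UTP21 had 4.92% and 9.39% of reads in or past BLS1, and UTP11 had 5.31% and 2.51% in or past YKL100C.

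Reads inside an ORF mark poly(A) ends before the stop codon. They can also be 3' ends of a same-strand gene that lies upstream. STN1 ends 148 nt before RRP8 and NVJ1 219 nt before UTP9, while SXM1 lies 1313 nt before UTP5. Which gene these reads come from was not tested. More than 5% of a gene's reads, counted over ORF and window, lay inside the ORF in both replicates for 6 UTP, 3 NOP and 2 RRP genes. That is 11 of 53 or 20.8%, against 22.1% of all ORFs used. The count was 17 with a threshold of 2% and 7 with 10%. The shares of all ORFs used at these 2 thresholds are not given here, so these counts cannot be set against a background. Median shares were 2.84% and 2.66% for the UTP genes, 0.828% and 0.802% for NOP and 1.06% and 0.707% for RRP, against 1.123% and 1.106% for the other ORFs. The UTP median was thus the highest, and the set as a whole lay near all ORFs.

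UTP5 (chromosome IV, 1267471 to 1269402, plus strand) stood apart, with 1185 and 912 reads inside the ORF against 211 and 245 in the window. These were 84.9% (82.9 to 86.7, Wilson 95% interval) and 78.8% (76.4 to 81.1) of its reads, spread over 43 and 31 positions. Most UTP5 reads were therefore not counted in its window level. UTP20 (chromosome II, 227636 to 235117, plus strand), with an ORF of 7482 nt, had 485 and 447 reads inside against 456 and 584 in the window, or 51.5% (48.3 to 54.7) and 43.4% (40.4 to 46.4). The reads of UTP20 lay at 57 positions in each replicate, and per kb of ORF they were 64.8 and 59.7, against 613 and 472 in UTP5.

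Next came NOP9, an RNA-binding protein gene of small-subunit assembly, with 24.8% and 19.0%, and RRP8 with 22.4% and 16.6%. UTP9 had 17.4% and 18.3%, UTP21 had 19.5% and 15.5% and NOP56 had 15.2% and 18.9%. NOP56 had more such reads per kb than UTP5, at 677 and 736, beside a much higher window level. No read lay inside the 177 nt ORF of NOP10 in either replicate, beside 14080 and 13564 window reads, and 3 counts would have been 0.0213% and 0.0221% of these. Intervals cover counting error only and take reads as independent.

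**Figure D5:**
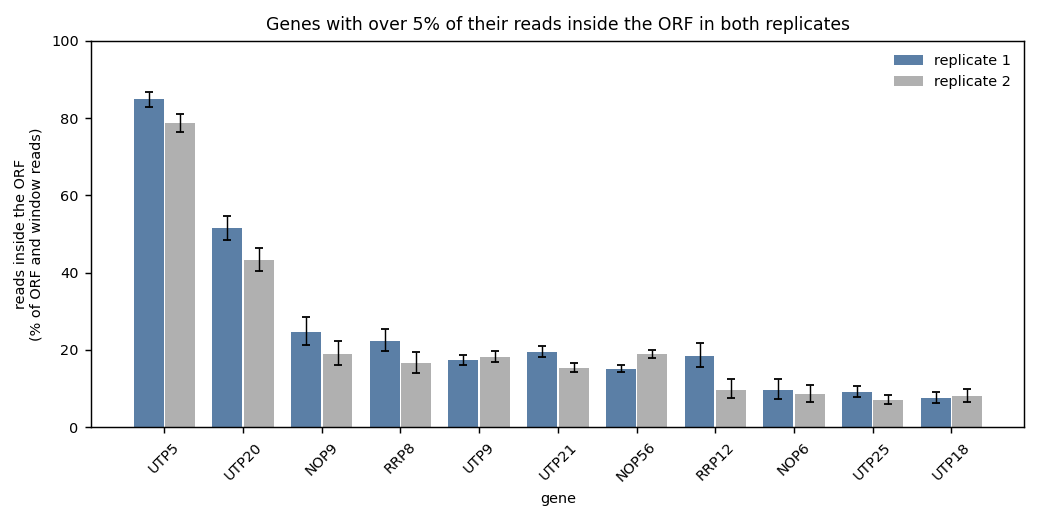
Share of ORF and window reads that lay inside the ORF (%), in replicate 1 (blue) and replicate 2 (grey), for the 11 genes above 5% in both; error bars are Wilson 95% intervals, which cover counting error only. UTP5 and UTP20 stand above the other 9 genes.

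The replicates were close for most genes. The median absolute difference of the mean endpoint between replicates was 1.37 nt for the 53 genes, against 2.03 nt for the other ORFs. A difference over 5 nt was found for 4 UTP, 3 NOP and 3 RRP genes, 10 of 53 or 18.9%, against 24.0% of all ORFs used. The largest was 17.9 nt in UTP5, longer in replicate 2, with a counting error of 8.84 nt (SE of the difference). RRP36, a small-subunit factor with 343 and 340 reads, was 14.1 nt shorter in replicate 2 (SE 4.76 nt), and UTP30 was 10.1 nt longer (SE 7.28 nt). NOP12 was 9.97 nt longer in replicate 2 with an SE of only 1.69 nt, and NOP14 was 9.21 nt longer with an SE of 1.38 nt. The differences of NOP12 and NOP14 were thus over 5 times their counting error, and those of UTP5 and UTP30 were closer to it. Smaller differences could also lie far beyond counting error, such as 8.43 nt in UTP21 (SE 1.19 nt) and 2.76 nt in RRP5 (SE 0.286 nt). The SE takes every read as an independent draw, which was not tested, and it is too small where reads are not independent. Some positions had many reads in only 1 replicate, such as 0 and 38 at position 393 of RRP43. Endpoints were longer in replicate 2 for 11 UTP, 7 NOP and 12 RRP genes, 30 of 53 or 56.6%, against 59.1% of all ORFs used.

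Levels tended to be higher in replicate 2. This was so for 16 UTP, 15 NOP and 11 RRP genes, 42 of 53 or 79.2%, against 63.3% of all ORFs used. The median log2 ratio of replicate 2 over replicate 1 was 0.19 for UTP, 0.29 for NOP and 0.12 for RRP genes, and 0.23 for the set, against 0.09 for the other ORFs. NOP19 had the largest ratio in the set, at 0.68 (73.1 and 117 RPM), and UTP18 the lowest, at -0.45 (46.2 and 33.9 RPM). The direction was shared by 104 other ribosome biogenesis genes, whose median log2 ratio was 0.24 and of which 85 were higher in replicate 2. With 2 cultures of 1 group, this is the spread between replicates.

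Those 104 genes were taken from a list of 105 further ribosome biogenesis genes with other names, such as snoRNP, large-subunit, helicase and exosome genes. Their median endpoint was 104.8 nt, between that of the UTP genes and that of the RRP genes, and 36 of them lay beyond the median of the other ORFs. Their median levels were 93.8 and 107 RPM. The list ran from ESF2, a small-subunit factor, at 47.6 nt to IMP3, which helps the U3 RNA to pair with the precursor, at 342.4 nt, so its range was wider than that of the 53 genes. Partners of the UTP complexes from that list were NAN1 of UTP-A at 125.7 nt, and PWP2 and DIP2 of UTP-B at 111.3 and 62.1 nt. UTP-B as a whole thus ran from DIP2 to UTP6.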

How the data were processed

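The data were 3' READS tables of 2 biological replicates of the Δrpb4 strain and of both pooled. Reads were aligned with Bowtie, per the submitters' processing notes. Its version and settings, the build and the treatment of multiply aligned reads were not given in the sources used here. Per the file headers, the authors list reads inside a feature and in the 400 nt after it, as signal that the values show to be reads times 1 factor per library. The deposited percent values at each position are relative to the gene's highest position. The distance to the next feature and the weighted average location, in nt, are also deposited. The pooled table was used only as a check and equalled the sum of the replicates within 1 read for 52 of 53 genes.

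Dividing by the factor found from the values (0.858 and 0.940) gave whole reads within 0.1 read at 99.998% and 99.995% of the positions checked. Mean endpoints recomputed from these reads differed from the deposited locations by at most 0.032 nt for the 53 genes. An ORF was used if each replicate had 100 or more window reads. All 53 genes have the ORF coordinates of assembly R64, and coordinates are the files' own. Values are means ± SD over 2 replicates. Having 1 group, the data allow no test between conditions, and none was made. The measures were tested on simulated data with known shifts.

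The genes, their roles and the list of other ribosome biogenesis genes (105, all matched, 2 by alias, 104 above the read minimum) were chosen with earlier results of these data known. Every gene of the 53 could be named, ordered by role. Site groups and their limits were chosen after seeing the data. Alternatives were other read minimums and windows, leaving out overlapping windows or 1 replicate, and other limits. Analyses used Python 3.11.15 with numpy 2.4.6, pandas 2.3.3, scipy 1.17.1 and matplotlib 3.10.9.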

Additional observations from a re-analysis of the deposited data

How the results depend on the processing

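The order of the family medians of the mean endpoint (UTP, then RRP, then NOP) was the same under every alternative tried. With at least 1000 window reads, which left 40 of the 53 genes, median endpoints were 87.3 nt for UTP, 144.8 nt for NOP, 108.9 nt for RRP and 116.7 nt for the set, the median leading share of the set was 36.7%, and effective numbers were 7.19, 8.56, 6.50 and 7.503. Over positions 1 to 300, endpoints were 87.3 nt for UTP, 112.0 nt for RRP and 108.1 nt for the set, and effective numbers were 7.16 for UTP, 8.54 for NOP and 7.42 for the set. That window moved 45 of 53 genes by under 5 nt and only UTP30 by over 1.5 times. Without the 12 windows that overlap a same-strand feature, endpoints were 106.9 nt for UTP, 118.1 nt for RRP and 119.8 nt for the set, the UTP leading share was 42.0%, and effective numbers were 7.60 for RRP and 7.82 for the set; fewer genes enter these medians. The median endpoint of the other ORFs moved too. It was 119.3 nt with at least 1000 window reads, 119.8 nt over positions 1 to 300 and 129.7 nt without overlapping windows. The UTP median lay before it in each case. The NOP median lay beyond it in the first 2 cases (144.8 and 125.4 nt) and before it in the last (125.4 nt). Counting all reads within 5 nt of the leading position gave shares of 52.1% for UTP, 44.9% for NOP, 64.1% for RRP and 55.5% for the set.

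With 1 replicate left out, median endpoints were 92.1 to 93.1 nt for UTP, 123.8 to 130.4 nt for NOP, 112.4 to 112.8 nt for RRP and 113.4 to 113.9 nt for the set. Leading shares were 39.6 to 40.2% for UTP, 34.2 to 35.5% for NOP, 37.6 to 39.2% for RRP and 36.8 to 37.5% for the set. Effective numbers were 7.69 to 7.89, 8.82 to 9.37, 6.74 to 7.17 and 7.79 to 7.93. Counts of genes beyond the median of the other ORFs were 6 for UTP, 9 to 10 for NOP and 6 for RRP. Genes with more than 1 site group were 39 to 41, 45 and 29 when reads within 5 and 20 nt were joined, and 24 with groups of at least 20% of reads, all limits chosen after seeing the data. Genes with reads inside the ORF were 17 at 2% and 7 at 10%, without a share of all ORFs to set beside them. Adding those reads to the levels, also chosen after seeing the data, gave a ratio of most to least read gene of 23.0 among the UTP-A genes of the set.

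No paired analysis was possible because the samples form 1 group. Motif searches in promoters and after stop codons were not run, since no sequence was used here. Depth limits UTP5 (211 and 245 window reads) and RRP36 (343 and 340) most.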
